A study of Rattus norvegicus with 4 samples.

Results

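The cytosolic ribosomal protein genes were described in cultured cortical neurons of the rat that had received topotecan or DMSO. They were taken by name: a protein-coding row of the count table was a member when its symbol was Rpl, Rps or Rplp with a number and at most a short letter or copy ending, or Rpsa, with 1 row per Ensembl identifier and at least 40 counts summed over the 4 libraries. The symbol pattern matched 94 identifiers with 85 symbols, and 76 of them, with 74 symbols, reached the minimum, out of 21648 identifiers in the table. Of these members 47 belong by name to the large ribosomal subunit and 29 to the small one.

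Total RNA had been sequenced from cells of the cortex of rat embryos of day 18, bought as a commercial preparation and plated for 24 hours in a neural induction medium before a change to a neuronal medium with a supplement. The topotecan group was 2 libraries of cells given topotecan, an inhibitor of topoisomerase I that the submitters used to reduce transcription of long genes, and the DMSO group was 2 libraries of cells given DMSO. The sources used here give neither the strain nor the dose nor how long the cells were treated, and they describe the cells of both groups alike in all else. Whether each library came from its own culture is not in the labels. All p-values thus compare the groups only against the spread among these samples, and that spread may be technical.

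Ribosomes of the cytosol join a large (60S) and a small (40S) subunit, each an RNA core covered by proteins. Nearly all of these proteins are needed in equal numbers, and their genes are for this reason usually expressed together. Most ribosomal protein mRNAs of vertebrates begin with a run of pyrimidines at the cap, the 5′ terminal oligopyrimidine tract or TOP, through which the kinase complex mTORC1 and the RNA-binding protein Larp1 set their translation. In neurons they are among the mRNAs found in axons and dendrites as well as in the cell body, and some ribosomal proteins that are not built into ribosomes bind the ubiquitin ligase Mdm2.

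The topotecan libraries held 31181382 and 25459488 gene counts, and the DMSO libraries 27347410 and 22957786. Markers of neurons were abundant in both groups: 14 pan-neuronal markers summed to 28941 and 30040 CPM (counts scaled to library size, after TMM) in topotecan and to 25598 and 23540 CPM in DMSO. Glial markers differed far more, with median log2 fold changes of -6.56 for astrocytes and -5.67 for the oligodendrocyte lineage. All 14 astrocyte markers and all 12 markers of the oligodendrocyte lineage were lower with topotecan, summing to 538 and 580 CPM in topotecan against 6387 and 6493 CPM in DMSO for astrocytes, and to 137 and 123 CPM in topotecan against 4077 and 4376 CPM in DMSO for the oligodendrocyte lineage. The oligodendrocyte marker Sox10 was at 0 in both topotecan libraries. Of 7 tested markers of radial glia and progenitors 6 were lower, with sums of 12.5 and 11.9 CPM in topotecan and 363 and 342 CPM in DMSO, while 9 microglial markers summed to 0.228 and 0.515 CPM in topotecan and 0.399 and 0.685 CPM in DMSO, with Tmem119, Aif1, Cx3cr1, C1qa, C1qb and C1qc at 0 in all 4. The DMSO libraries thus held markers of neurons and of glia, and in RNA from mixed cells fewer cells of a type and less RNA per cell cannot be told apart.

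Ribosomal protein mRNAs were modestly and broadly higher with topotecan. Of the 75 members that passed the low-count filter, 42 (56%) were higher at an adjusted p under 0.05 in edgeR's quasi-likelihood test, none was lower, and 33 did not pass. Among all 12162 genes tested, 16.2% were higher and 23.5% lower. The median log2 fold change of the members was 0.38, a fold of 1.30, with the middle 50% between 0.28 and 0.49, against a median of -0.01 for all genes. The 42 that passed had folds of 1.19 to 2.21, and Rpl32 alone among them reached a fold of 2. No member was lower at an unadjusted p under 0.05 either, and 71 of the 75 had a log2 fold change above 0. In 65 members both topotecan libraries lay above both DMSO libraries (33.7% of all genes tested did so), and in 1, Rps27l, both lay below (36.9% of all genes). DESeq2 called 41 members higher and limma-voom 43, again with none lower. The share of all genes called by these methods is not given here.

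**Figure D1:**
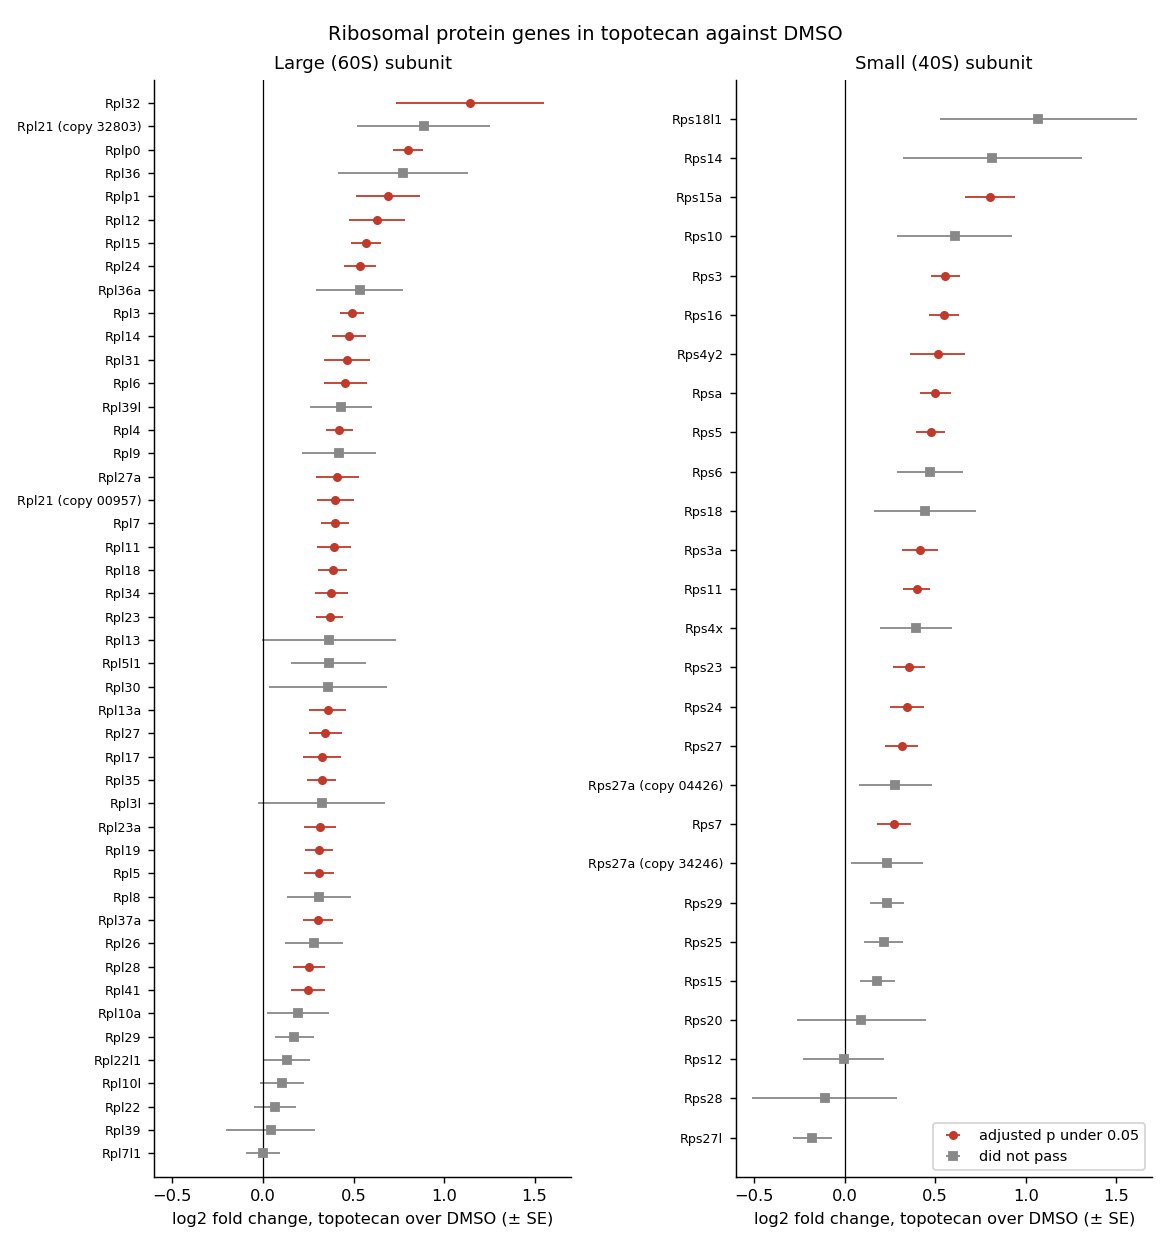
Log2 fold change of topotecan over DMSO (x axis, bars ± SE of the edgeR fit over 2 libraries per group) for the members reported singly, with the large subunit on the left and the small subunit on the right. Red circles passed at an adjusted p under 0.05 and grey squares did not, and "copy" gives the last digits of the Ensembl identifier where a symbol has several. All red points lie between 0.25 and 1.14, and the few points at or under 0 (Rpl7l1, Rps12, Rps28 and Rps27l) are grey.

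Several markers of neurons were higher too, and some were lower. Of 10 tested markers of glutamatergic neurons 6 were higher and none lower, with a median log2 fold change of 0.44, and of the 14 pan-neuronal markers 6 were higher and 2 lower, with a median of 0.24. Interneuron markers went both ways (4 of 9 higher, 3 lower), and few markers of vessels and connective tissue could be tested, with 1 of 2 endothelial and 2 of 3 fibroblast and mural markers lower and 1 of those 3 higher. Libraries were also scaled to the summed counts of 28 neuronal genes. These were no fixed reference: of 27 tested under TMM, 11 were higher and 2 lower, with a median log2 fold change of 0.15. They summed to 43437 and 44953 CPM in topotecan and to 39876 and 35927 CPM in DMSO. After this scaling the median of all genes was -0.23 and the member median 0.15. With 1 factor per library, the scaling moved both by nearly the same amount, so the distance of 0.38 between them could hardly change. Under that scaling 4.13% of all genes were called higher and 33.2% lower, and 11 members, all among the 42, were higher, among them Rplp0, Rplp1, Rpl3, Rpl15, Rpl24, Rpsa, Rps3, Rps15a and Rps16. Rps27l was then called lower (edgeR adjusted p = 0.0225). Of the calls over all genes 59.2% were lower under TMM and 88.9% under the neuronal scaling. What part a change in cell makeup has in these values was not tested.

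How many members passed went down or up with the library that was left out. The share of all genes called in those fits is not given here. The medians were steadier: measured against the DMSO mean, the median log2 ratio over the members was 0.40 and 0.35 in the topotecan libraries, and 0.07 and -0.07 in the DMSO libraries. The distance between the groups was larger than the distance within either of them.

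The proteins of the stalk, the flexible arm of the large subunit that recruits elongation factors, include the member with the smallest p. Rplp0 (also called P0), the base of the stalk, had 3041 and 2695 CPM in topotecan and 1743 and 1549 CPM in DMSO. It was the member with the most counts, its groups were far apart, and its mean was 2868 ± 245 CPM in topotecan and 1646 ± 138 CPM in DMSO (SD, n = 2 each). Its log2 fold change was 0.80 ± 0.08 (SE; edgeR adjusted p = 3.26e-06). Rplp1, which binds the base in pairs with Rplp2, had 12.6 and 11.2 CPM in topotecan against 8.59 and 6.08 CPM in DMSO. Its groups did not overlap and it was higher by 0.69 ± 0.18 in log2 (SE; edgeR adjusted p = 0.00749). Rplp2 is listed at 0 in all 4 libraries.

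The other large-subunit genes with many counts had smaller log2 fold changes than Rplp0. Rpl3, which reaches toward the peptidyl transferase centre, had 2264 and 2236 CPM in topotecan and 1631 and 1571 CPM in DMSO (log2 fold change 0.49 ± 0.07 SE; edgeR adjusted p = 5.99e-05). Rpl4, which lines the exit tunnel of the nascent chain, had 750.5 and 703 CPM in topotecan and 552 and 533 CPM in DMSO. Its log2 fold change was 0.42 ± 0.07 (SE; edgeR adjusted p = 0.000472). In both of these genes the lower topotecan library was above the higher DMSO library, and replicates lay close together. Rpl15 had 311 and 291 CPM in topotecan and 213 and 193 CPM in DMSO, and Rpl24, which forms a bridge to the small subunit, had 173 and 165 CPM in topotecan and 123 and 110 CPM in DMSO. Both passed, with log2 fold changes of 0.57 and 0.53 (edgeR adjusted p = 0.000101 and 0.000285).

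Rpl5 and Rpl11 form with 5S ribosomal RNA the particle that enters the large subunit or, when free, binds Mdm2. Rpl5 had 148 and 139.9 CPM in topotecan and 115 and 117 CPM in DMSO, and Rpl11 219 and 189 CPM in topotecan and 165 and 146 CPM in DMSO. Both were higher with no overlap of groups, by 0.31 ± 0.08 and 0.39 ± 0.09 in log2 (SE; edgeR adjusted p = 0.00916 and 0.00489). Without topotecan replicate 1 neither passed (edgeR adjusted p = 0.133 and 0.0983).

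At the upper end of the large-subunit genes stood Rpl32, with 32 and 24 counts in topotecan and 14 and 9 in DMSO. Its log2 fold change of 1.14 ± 0.41 (SE) was the largest of any member and only just passed (edgeR adjusted p = 0.0403). It did not pass without any single library (edgeR adjusted p = 0.0764 to 0.19), with the replicate number as a block (0.0576) or in DESeq2 (0.245). The next gene by size, 1 of the 2 members named Rpl21, had 34 and 31 counts in topotecan and 17 and 15 in DMSO and did not pass (0.89; edgeR adjusted p = 0.0732), nor did Rpl36 at 0.77 (edgeR adjusted p = 0.106). These values rest on few reads. The other member named Rpl21 had 4599 counts in all and was higher (log2 fold change 0.40; edgeR adjusted p = 0.00705). At the other end of those that passed was Rpl41, among the shortest proteins known, with 323.5 and 297 CPM in topotecan and 283.5 and 239 CPM in DMSO, a log2 fold change of 0.25 (edgeR adjusted p = 0.0453) that did not pass without topotecan replicate 1 or without DMSO replicate 2 (0.281 and 0.196).

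Rps3, Rps16 and Rpsa were higher among the small-subunit genes with many counts. Rps3, which lies at the entry of the mRNA channel, had 704 and 645 CPM in topotecan against 482 and 436 CPM in DMSO (log2 fold change 0.56; edgeR adjusted p = 9.58e-05). Rps16 had 397 and 394 CPM in topotecan against 288 and 253 CPM in DMSO (0.55; edgeR adjusted p = 0.000129), and Rpsa, also known as the laminin receptor, 431 and 390.1 CPM in topotecan against 305 and 275 CPM in DMSO (0.50 ± 0.08 SE; edgeR adjusted p = 0.000325). Each of these had both topotecan libraries above both DMSO libraries by more than the replicates differed.

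The larger folds of the small subunit came from genes with few counts. Rps15a had 17.3 and 16.6 CPM in topotecan and 9.605 and 9.804 CPM in DMSO. Its groups were well apart and it passed with a log2 fold change of 0.80 (edgeR adjusted p = 0.000401). Rps18l1 and Rps14 had fitted values of 1.07 and 0.81 on 40 and 50 counts in all and did not pass (edgeR adjusted p = 0.137 and 0.214). Rps6, the substrate by which the activity of the S6 kinases is usually read, had 10.5 and 10.9 CPM in topotecan and 9.10 and 6.25 CPM in DMSO. Its groups were separate, but the DMSO libraries differed from each other and it missed the threshold (log2 fold change 0.47 ± 0.18 SE; edgeR adjusted p = 0.055). Without DMSO replicate 1 it passed at 0.78 (edgeR adjusted p = 0.000951), and limma-voom also passed it (0.046).

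A few members had log2 fold changes at or near 0. Rps27l had 33.2 and 32.8 CPM in topotecan and 38.0 and 36.6 CPM in DMSO, the only member with both topotecan libraries below both DMSO libraries, at a log2 fold change of -0.18 ± 0.11 (SE; edgeR adjusted p = 0.206). Rpl7l1 had 78.4 and 73.1 CPM in topotecan and 76.59 and 75.01 CPM in DMSO, the DMSO values lying between those of topotecan (-0.00 ± 0.09 SE). Rps12 and Rps28 had log2 fold changes of -0.01 and -0.11 on few counts, and Rpl39 one of 0.04, with overlapping groups. Of the 37 members with 4000 or more counts in all, 33 were higher, and the 4 that did not pass were Rpl7l1, Rps29, Rps15 and Rpl29, the last 3 at log2 fold changes of 0.23, 0.18 and 0.17. Rps29 and Rps15 passed without DMSO replicate 1, at 0.29 and 0.34 (edgeR adjusted p = 0.014 and 0.00153).

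How many members passed followed the number of counts, while the median log2 fold changes lay close together. Of 16 tested members with under 400 summed counts 1 was higher, with a median log2 fold change of 0.43 and a median SE of 0.355. That median includes Rps18l1, with 5 and 7 counts in DMSO, and Rps14, with 11 and 6. Both passed the low-count filter only through their topotecan libraries, which favours high folds among the sparse members. From 400 to under 4000 counts 8 of 22 were higher, with a median of 0.38 and a median SE of 0.158. With 4000 or more counts it was 33 of 37, with a median of 0.37 and a median SE of 0.0879. For the sparse genes a change of this size was thus not detectable at this depth.

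**Figure D2:**
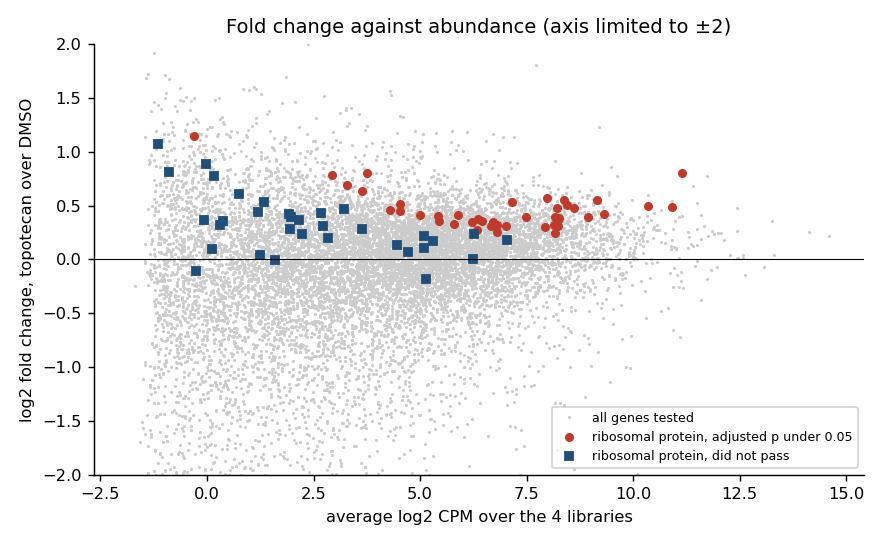
Log2 fold change of topotecan over DMSO (y axis, limited to 2 in either direction) against the average log2 CPM over the 4 libraries (x axis), with all genes tested as grey dots, members that passed as red circles and members that did not as blue squares. The members lie in a band above 0 along the abundance range, with most of the blue squares at the left, where counts are few, and Rplp0 standing above the band at the right at 0.80.

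Many ribosomal protein genes have near-identical processed copies, and the sources used here do not give how the counting treated reads that fit several places, so the level of a single gene is uncertain and levels are not compared between genes. Mean levels ran from 0.366 to 2257 CPM. Just above the minimum of 40 counts were Rps18l1 with 40, Rps2 with 41 and Rps14 with 50, and just below it a second identifier named Rps4x with 32, Rps19l1 with 31 and Rpl22l2 with 6. Rps2, a core protein of the small subunit, had 22 and 9 counts in topotecan and 6 and 4 in DMSO and was the member left out by the low-count filter. Of the 18 identifiers below the minimum 9 are listed at 0 in every library, among them the only rows named Rplp2, Rpl37, Rpl35a, Rpl38 and Rps19. Among the rows that are no members, 145 described as ribosomal proteins or their copies had counts, the 9 pattern rows with counts below the minimum included, and together they took 0.0160% and 0.0170% of the counts in topotecan and 0.0138% and 0.0126% in DMSO. Of their 29 tested rows 3 were higher and none lower, with a median log2 fold change of 0.38.

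Summing over members removes part of this uncertainty, because a read moved between 2 members leaves the sum alone. The 76 members took 1.51% and 1.46% of all gene counts in topotecan and 1.13% and 1.05% in DMSO. The topotecan libraries were both above the DMSO libraries, with means of 1.49 ± 0.0339% in topotecan and 1.09 ± 0.0581% in DMSO (SD, n = 2 each), a difference of 0.400 percentage points and a ratio of 1.37. An exact two-sided permutation test gave p = 0.333, the smallest that 2 against 2 libraries allow. The exact 95% binomial interval of the topotecan replicate 2 share, 1.460% to 1.469%, and that of the DMSO replicate 1 share, 1.125% to 1.133%, did not meet, though such intervals cover counting error only. The 4 members with the most counts held 0.234 of the 0.400 points, at a ratio of 1.47. The other members held 0.166 points, at a ratio of 1.28. With glial and progenitor markers taken out of the total the difference over all members was 0.389 points. Only the counts of the marker genes themselves left the total, so the difference could change little, and other RNA of glia stayed in it.

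**Figure D3:**
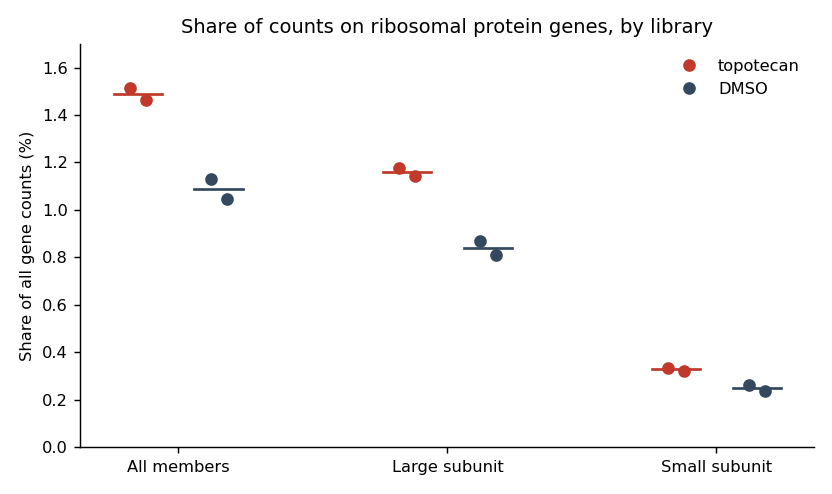
Share of all gene counts (y axis, percent) that fell on all members, on large-subunit members and on small-subunit members, with 1 point per library, topotecan in red on the left of each pair and DMSO in dark blue on the right, and a line at each mean of 2 libraries. All members took 1.51% and 1.46% in topotecan and 1.13% and 1.05% in DMSO, and in each set both red points lie above both blue ones.

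Large and small subunits had similar medians. Of 47 tested large-subunit members 29 (61.7%) were higher, with a median log2 fold change of 0.37, and of 28 tested small-subunit members 13 (46.4%), with a median of 0.40. Large-subunit genes took 1.18% and 1.14% of counts in topotecan and 0.869% and 0.809% in DMSO, a ratio of 1.38. Small-subunit genes took 0.335% and 0.322% in topotecan and 0.260% and 0.237% in DMSO, a ratio of 1.32. To compare them within a library, the median log2 ratio to the DMSO mean of the small-subunit members was taken from that of the large-subunit members. This gave -0.02 and 0.04 in topotecan, and 0.00065 and -0.00065 in DMSO. The 2 topotecan libraries lay on either side of the DMSO libraries, and the mean difference of 0.0088 (exact two-sided permutation p = 1) was smaller than the spread between the topotecan libraries.

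Several members have a paralog, a sister gene, and in some pairs its product can take the place of the common protein. Within a library the ratio of 2 genes does not depend on the scaling, and 7 pairs were compared by the log2 ratio of their counts, 6 of which are reported here. With 2 against 2 libraries none of them could pass: the smallest exact p is 0.333, which is 0.583 after Benjamini-Hochberg adjustment over the 7 pairs. The counts of such pairs can share reads where the sequences are alike.

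Rpl22 and Rpl22l1 are a pair in which, in the mouse, the Rpl22 protein binds the Rpl22l1 transcript and lowers it. Rpl22 had 26.26 and 27.16 CPM in topotecan and 26.02 and 25.003 CPM in DMSO, and Rpl22l1 had 23.3 and 22.9 CPM in topotecan and 22.6 and 19.4 CPM in DMSO. Neither passed, at log2 fold changes of 0.07 ± 0.11 and 0.13 ± 0.13 (SE; edgeR adjusted p = 0.687 and 0.43), so both stood below the member median of 0.38. Rpl22l1 made up 47.0% and 45.7% of the counts of the pair in topotecan and 46.5% and 43.7% in DMSO. The log2 ratio was -0.17 and -0.25 in topotecan and -0.20 and -0.36 in DMSO, with overlapping groups and a difference of 0.07 (exact two-sided permutation p = 0.667).

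In the pairs of Rpl7, Rps27 and Rpl3 the common gene passed the test and its relative did not. For Rpl3l against Rpl3 the groups of the ratio overlapped. Rpl7l1, whose relative in yeast acts in the assembly of the large subunit, made up 19.2% and 18.8% of the counts it shared with Rpl7 in topotecan and 23.4% and 23.8% in DMSO. Rpl7 had 331 and 317 CPM in topotecan and 251 and 241 CPM in DMSO and was higher by 0.40 ± 0.08 in log2 (SE; edgeR adjusted p = 0.00104). The groups of the ratio were separate and replicates close together, with a difference of -0.40 on the log2 scale (exact two-sided permutation p = 0.333).

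Rps27l made up 22.7% and 22.4% of the counts it shared with Rps27 in topotecan and 28.1% and 30.2% in DMSO. Rps27, a zinc-finger protein of the small subunit, had 112.8 and 113.4 CPM in topotecan and 97.1 and 84.7 CPM in DMSO and was higher (log2 fold change 0.31 ± 0.09 SE; edgeR adjusted p = 0.0159), though not without topotecan replicate 1 or replicate 2 (0.083 and 0.0922). The groups of the ratio were again separate, with a difference of -0.50 (exact two-sided permutation p = 0.333).

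Rpl39l, best known from the testis of the mouse, moved the other way against Rpl39. It had 7.01 and 7.53 CPM in topotecan and 5.51 and 5.27 CPM in DMSO, and its own change missed the threshold (log2 fold change 0.43 ± 0.17 SE; edgeR adjusted p = 0.0598). The log2 ratio to Rpl39 was 1.63 and 1.65 in topotecan and 1.41 and 1.10 in DMSO, separate groups with a difference of 0.39 (exact two-sided permutation p = 0.333). Rps4y2 against Rps4x and Rpl3l, a gene of heart and skeletal muscle, against Rpl3 had overlapping groups, with differences of 0.14 and -0.21. Rps4y2 itself was higher, with 25.4 and 29.1 CPM in topotecan and 22.0 and 16.0 CPM in DMSO (log2 fold change 0.51; edgeR adjusted p = 0.0156), but did not pass without topotecan replicate 2 or DMSO replicate 2 (0.0841 and 0.0596).

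**Figure D4:**
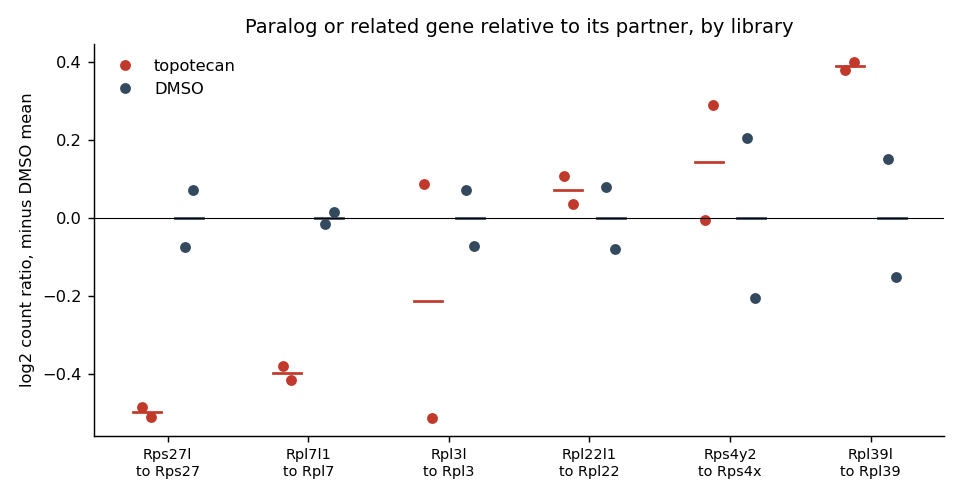
Log2 ratio of the counts of a paralog or related gene to those of its partner, less the mean of the DMSO libraries (y axis), for 6 pairs ordered by their difference, with 1 point per library, topotecan in red on the left and DMSO in dark blue on the right, and a line at each mean. Rps27l and Rpl7l1 lie at -0.50 and -0.40 and Rpl39l at 0.39 with the libraries of the groups apart, while Rpl22l1 lies at 0.07 with overlapping groups.

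The start of the transcript, where the TOP tract lies, was read for the members from RefSeq promoter sequences of the rat build GRCr8. Symbols matched 55 members. In the window from 30 bases before to 20 bases after the annotated start, the longest run of C or T on the strand of the gene that touched the 5 bases on either side of the start was measured. A run of at least 8 was found in 32 of the 55 (58.2%), against 2902 of 33465 promoters in the same table (8.67%), and the median run was 9 bases for the members and 3 for all promoters. Such a run is a description of these letters at the annotated start, and not a measured cap site.

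Below, capitals mark that run. The sets show a long run in genes that were higher (Rplp0, Rplp1, Rpl4, Rps15a, Rps27), a long run in one that did not pass (Rpl22), a short run in one that was higher (Rpl3) and the short runs of 3 paralogs that did not pass (Rpl22l1, Rpl7l1, Rps27l). Positions are Rplp0 chr12:46718371-46718420 (minus strand), Rplp1 chr8:71290853-71290902 (minus), Rpl4 chr8:73566447-73566496 (plus), Rps15a chr1:181860265-181860314 (minus), Rps27 chr2:177964587-177964636 (minus), Rpl22 chr5:168117931-168117980 (plus), Rpl3 chr7:113507971-113508020 (minus), Rpl22l1 chr2:113683166-113683215 (plus), Rpl7l1 chr9:21695688-21695737 (plus) and Rps27l chr8:76443628-76443677 (plus).
Rplp0: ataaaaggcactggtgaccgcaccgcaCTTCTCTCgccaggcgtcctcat
Rplp1: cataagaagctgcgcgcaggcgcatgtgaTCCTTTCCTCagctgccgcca
Rpl4: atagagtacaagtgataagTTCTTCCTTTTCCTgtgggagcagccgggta
Rps15a: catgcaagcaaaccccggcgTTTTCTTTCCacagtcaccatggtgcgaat
Rps27: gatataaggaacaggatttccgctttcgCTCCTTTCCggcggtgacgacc
Rpl22: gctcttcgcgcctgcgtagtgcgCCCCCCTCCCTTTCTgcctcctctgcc
Rpl3: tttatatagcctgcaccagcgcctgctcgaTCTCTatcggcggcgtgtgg
Rpl22l1: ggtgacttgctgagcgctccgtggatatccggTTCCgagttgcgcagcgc
Rpl7l1: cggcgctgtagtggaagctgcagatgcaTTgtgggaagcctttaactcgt
Rps27l: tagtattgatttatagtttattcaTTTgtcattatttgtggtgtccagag

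Members with a long and with a short run had similar medians. Of the 31 tested members with a run of at least 8 bases 21 were higher, with a median log2 fold change of 0.36, and of the 23 with a shorter one 11 were higher, with a median of 0.39. Rpl22, with a run of 15, did not pass, and Rpl3, with a run of 5, did. The 3 paralogs Rpl22l1, Rpl7l1 and Rps27l had runs of 4, 2 and 3 bases. Asking for at least 6 or at least 10 bases gave 65.5% and 47.3% of members against 18.7% and 4.50% of all promoters.

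Other mRNAs known to begin with a TOP tract had a similar median. Of 17 tested, 12 were higher and none lower, with a median log2 fold change of 0.35, and under the neuronal scaling 1 was higher and 2 lower. Eef1a1, the factor that brings aminoacyl-tRNA to the ribosome, had 616 and 564 CPM in topotecan and 458 and 437 CPM in DMSO (0.40; edgeR adjusted p = 0.00102). Eif3f and Npm1, a subunit of an initiation factor and a nucleolar chaperone, were higher by 0.56 and 0.40 (edgeR adjusted p = 0.000673 and 0.000827). Eef2, the translocase of elongation, did not pass, with 2681 and 2763 CPM in topotecan and 2764 and 2903 CPM in DMSO, nor did Eif3h, Eif4b and Nap1l1, at 0.20, 0.10 and -0.10.

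The wider translation machinery had smaller medians. Its lists are not separate from the TOP mRNAs above. Eef1a1, Eef2, Eif3f, Eif3h and Eif4b, among others, are counted again as translation factors, and Npm1 as an assembly gene. Of 44 translation factors 21 were higher and 2 lower (median log2 fold change 0.21), and under the neuronal scaling 4 were higher and 3 lower. Those with the smallest p were Eif2b3, Eef1e1 and Eif6, at log2 fold changes of 0.68, 0.61 and 0.46. Eif2b3 is a subunit of the exchange factor for initiation factor eIF2, and Eif6 keeps the subunits apart until the large one is mature. Of 78 genes for ribosome assembly and ribosomal RNA synthesis 34 were higher and 3 lower (median 0.22), and under the neuronal scaling 5 were higher and 7 lower. Nop56, a core protein of the particles that methylate ribosomal RNA, had 828 and 849 CPM in topotecan and 522 and 565 CPM in DMSO, with groups well apart (0.63; edgeR adjusted p = 1.52e-05). Wdr12, of the large-subunit assembly complex, and Taf1d, of the transcription factor for RNA polymerase I, were higher by 0.62 and 1.05 (edgeR adjusted p = 3.5e-05 and 7.13e-05).

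Ribosomal proteins of the mitochondrion, encoded by other nuclear genes, had a similar median: of 69 tested 29 were higher and 1 lower, at 0.22. Under the neuronal scaling 3 were higher and 2 lower. The genes with the smallest p were Mrps33, Mrpl14 and Mrpl23, at log2 fold changes of 0.53, 0.53 and 0.50. Under the neuronal scaling the medians of translation factors, assembly genes and mitochondrial ribosomal proteins were -0.01, 0.00 and 0.00, and that of other TOP mRNAs 0.13. The median of all genes is -0.23 under that scaling.

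Genes that control TOP translation showed no common direction, with 2 of 12 higher and 2 lower and a median of 0.01. Rheb, the small GTPase that activates mTORC1, and Eif4ebp1, which holds back cap-dependent initiation, were higher by 0.51 and 0.70 (edgeR adjusted p = 0.000356 and 0.000641). Rptor and Mtor, subunits of mTORC1, were lower, at log2 fold changes of -0.67 and -0.26 (edgeR adjusted p = 0.000794 and 0.0367). The call of Mtor was lost without topotecan replicate 1, topotecan replicate 2 or DMSO replicate 2 (0.249, 0.179 and 0.0916), with the replicate number as a block (0.0525) and in DESeq2 (0.0747). Larp1 had 2.97 and 2.38 CPM in topotecan and 2.79 and 2.44 CPM in DMSO, with overlapping groups.

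**Figure D5:**
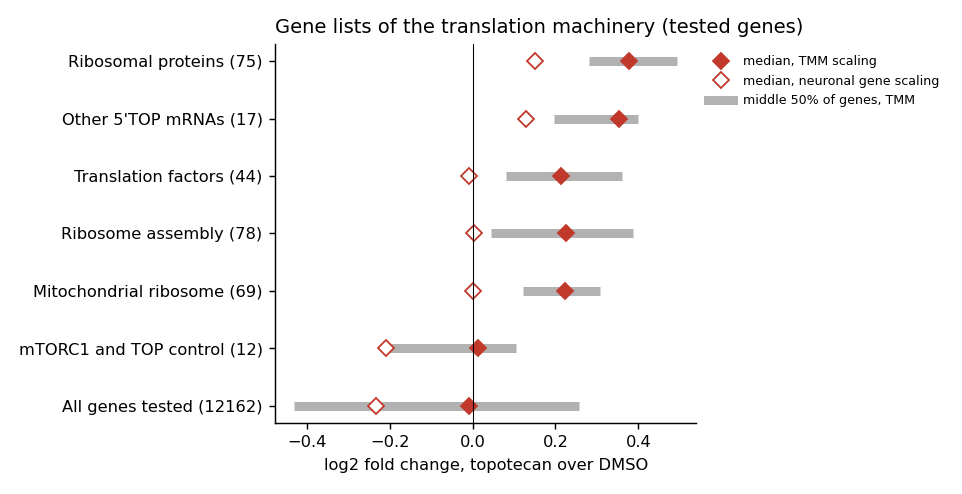
Median log2 fold change of topotecan over DMSO (x axis) for the ribosomal protein genes, 5 related gene lists and all 12162 genes tested, with filled diamonds under TMM scaling, open diamonds after scaling to neuronal genes and grey bars for the middle 50% of genes under TMM. The ribosomal proteins have the highest median, 0.38 under TMM and 0.15 under neuronal scaling. Other TOP mRNAs follow at 0.35 and 0.13, and all genes lie at -0.01 and -0.23. The neuronal scaling moves all lists by nearly the same amount, so their order could hardly change. Some genes stand in more than 1 list.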

How the data were processed

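The authors deposited raw counts per gene for the 4 libraries in 1 table, as whole numbers without normalization. Per the submitters' processing notes STAR and edgeR were used, with no version named. Build, annotation, counting tool and use of strand were not given in the sources used here, so overlapping genes and near-identical copies can share reads. Per the labels a small RNA kit was used for the libraries, and how that bears on these counts was not tested. The table had 22641 rows for 21648 identifiers, and the 792 identifiers found on several rows, with identical counts, were used once. No row lacked an identifier, and 0.065% of identifiers had no symbol. Over the genes, counts of replicates differed by more than sampling noise (chi-square per degree of freedom 9.34 in topotecan, 13 in DMSO).

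Topotecan was compared with DMSO by the quasi-likelihood F-test of edgeR 4.0.16 in R 4.3.3. The settings were TMM, filterByExpr with a minimum count of 10 and a total of 15, and treatment as the only term. There were 2 residual degrees of freedom and a biological coefficient of variation of 0.0831. P-values were Benjamini-Hochberg adjusted over all 12162 genes with a threshold of 0.05. A run on simulated counts used a common dispersion and as many genes raised as lowered. It does not test the fit under an imbalance like that of these data, and its outcome is not given here. DESeq2 1.42.0 and limma 3.58.1 voom, other scalings, no filter and leaving out each library were alternatives. CPM are after TMM scaling. The median per library is over log2(CPM + 0.5), the paralog ratio over counts + 0.5, and both were tested by exact permutation over libraries.

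The members and the gene lists were chosen with earlier results of these data known. Named were paralog pairs, stalk and 5S particle genes, Rpsa and Rps6, the 6 largest and 6 smallest log2 fold changes, the 4 members with the highest CPM, those nearest the count minimum, and of each related list the 3 genes with the smallest p. Other members and list genes in the text were added after their values were seen. Some genes that these rules take are not reported here.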

Additional observations from a re-analysis of the deposited data

How the results depend on the processing

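The number of members called higher, 42, was 39 to 45 under library sizes only, upper-quartile scaling, TMM without the ribosomal protein genes, no low-count filter, DESeq2 and limma-voom, with 0 lower in each. Scaled to neuronal genes it was 11 higher and 1 lower, with a median of 0.15. Leaving out 1 library gave 26 (without topotecan replicate 1) to 46 (without DMSO replicate 1) higher and medians of 0.31 to 0.45, and a difference in share of 0.36 to 0.44 points. With the replicate number as a block 41 were higher. The share of all genes called is given here only for the main fit and the neuronal scaling. The labels do not pair the samples, and the deviations of same-numbered samples correlated at -0.06. Large minus small subunit was 0.043 with a pseudocount of 2 CPM and -0.022 (without topotecan replicate 2) to 0.065 (without DMSO replicate 2) when a library was left out, so its sign rests on single libraries. So do the signs of 3 paralog ratios: Rpl22l1 to Rpl22 ranged from -0.0066 to 0.15, Rpl3l to Rpl3 from -0.51 to 0.086 and Rps4y2 to Rps4x from -0.061 to 0.35. Without topotecan replicate 2 the last was -0.005. Rpl7l1 to Rpl7, Rps27l to Rps27 and Rpl39l to Rpl39 kept their signs, at -0.42 to -0.38, -0.57 to -0.42 and 0.24 to 0.54. The cause was not tested. Of 64 single genes followed through these alternatives, scaling to neuronal genes ended 15 calls and added 3, and no call changed sign. With 2 libraries per group, members with few counts could not show a change of the median size.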
